A study of Homo sapiens with 6 samples.

Results

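The initiator methionine tRNA genes are the 8 human genes TRX-CAT1-1 to TRX-CAT1-8, taken as every gene of the RefSeq table for GRCh38.p14 whose symbol starts with TRX-CAT. They are 8 of 443 nuclear tRNA genes in that table. Peaks were assigned to a gene when they overlapped it by at least 1 bp. The genes were selected on their symbol, and singled out among tRNA families with their peaks in these lists already known, so the presence and score of those peaks are given as a description, with no test.

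Initiator tRNA carries the methionine that opens every cytosolic protein chain. It is brought to the small ribosomal subunit by the initiation factor eIF2 bound to GTP, whereas elongator methionine tRNA reads the same codon inside open reading frames. Like other tRNA genes, these genes are transcribed by RNA polymerase III from promoter elements that lie within the transcribed sequence. The precursor is trimmed at both ends, and CCA is added to its 3′ end after transcription. The series title concerns the binding of RNA by HSP70 chaperones and transcription by this polymerase.

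The cells were HEK293 Flp-In T-Rex, a standing line of human embryonic kidney origin made to carry a transgene under tetracycline control. The transgenes coded for GFP, for HSPA1A, a stress-inducible HSP70 chaperone, or for HSPA8, its constitutive relative, each with a 3xFLAG-HBH tag. All cells were induced with 1 µg/ml tetracycline and crosslinked with ultraviolet light, and RNA held by the purified bait was sequenced by FLASH-seq, with 2 biological replicates per bait. The baits are therefore tagged, induced proteins in cells that also keep their own HSP70 genes. Peak lists of both HSPA1A and both HSPA8 replicates were analysed, and GFP was not analysed here, so no value has a background from a control bait.

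The lists held 2744 and 2059 peaks for HSPA1A replicates 1 and 2 and 3131 and 2040 for HSPA8 replicates 1 and 2. Read depth is unknown. Sequence names carry the prefix chr in the HSPA8 lists and not in the HSPA1A lists, and 353 and 617 HSPA8 peaks lay on scaffolds against 0 in each HSPA1A list. The lists of the baits thus differ in naming and in the sequences they cover, and the part of this in the results was not tested. Peak lists hold no expression levels, so the cell line label was not checked against marker genes.

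Of the 8 genes, 6 lie on chromosome 6, and each is 72 bp long. TRX-CAT1-2 (26286526 to 26286597), TRX-CAT1-3 (26313124 to 26313195) and TRX-CAT1-4 (26330301 to 26330372) lie near each other. TRX-CAT1-5 (27332985 to 27333056), TRX-CAT1-6 (27592821 to 27592892) and TRX-CAT1-7 (27902493 to 27902564) follow on the same chromosome. TRX-CAT1-1 lies on chromosome 1 from 153671250 to 153671321, 257 bp from the protein-coding gene ILF2. TRX-CAT1-8 lies on chromosome 17 from 82494721 to 82494792, 4184 bp from NARF. TRX-CAT1-2 and TRX-CAT1-4 overlap the long non-coding RNA genes LOC124901287 and LOC101928743, in that order, and the other genes overlap no annotated gene. Whether these positions are exonic or intronic in the non-coding genes was not determined, because the table gives no exons. In the naming scheme, genes that share the number before the last hyphen encode the same mature tRNA. Reads from that mature sequence therefore cannot be placed on 1 of the 8 genes, and their peaks are uncertain between copies.

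Every initiator gene carried a peak in both HSPA1A lists, while 2 carried a peak in HSPA8 replicate 1 and 0 in HSPA8 replicate 2. This came to 8 ± 0 genes for HSPA1A and 1 ± 1.41 genes for HSPA8 (mean ± SD, n = 2 lists each). As background, the share of all 443 nuclear tRNA genes with a peak was 39.3% in the first HSPA1A list, 34.3% in its second, 39.5% in the first HSPA8 list and 12.6% in its second. The members' share was thus above the background in the HSPA1A lists, at 8 of 8. In the HSPA8 lists it was 25.0% and 0%. With 8 copies of 1 mature sequence, these shares cannot be read as a shortfall from 39.5% and 12.6%. The count was 6 genes higher for HSPA1A between the lists numbered 1 and 8 genes higher between those numbered 2. Lists of equal number are not known to be matched, as the labels name no shared day or batch. No p is given, because these counts were known when the genes were chosen and because the copies share their sequence.

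The HSPA8 peaks were on TRX-CAT1-1 and TRX-CAT1-5. The other 6 genes, TRX-CAT1-2, TRX-CAT1-3, TRX-CAT1-4, TRX-CAT1-6, TRX-CAT1-7 and TRX-CAT1-8, had a peak in both HSPA1A lists and in neither HSPA8 list. A peak in all 4 lists was found at 0 of the 8 initiator genes and at 33 of the 443 tRNA genes (7.45%). The pattern of both HSPA1A lists and neither HSPA8 list was found at 23 of the 443 tRNA genes (5.19%). The remaining 17 genes came from 9 other families, with 4 glutamate TTC genes and 4 phenylalanine GAA genes as the most frequent. The reverse pattern, both HSPA8 lists and neither HSPA1A list, was found at 0 of the 443 genes.

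**Figure D1:**
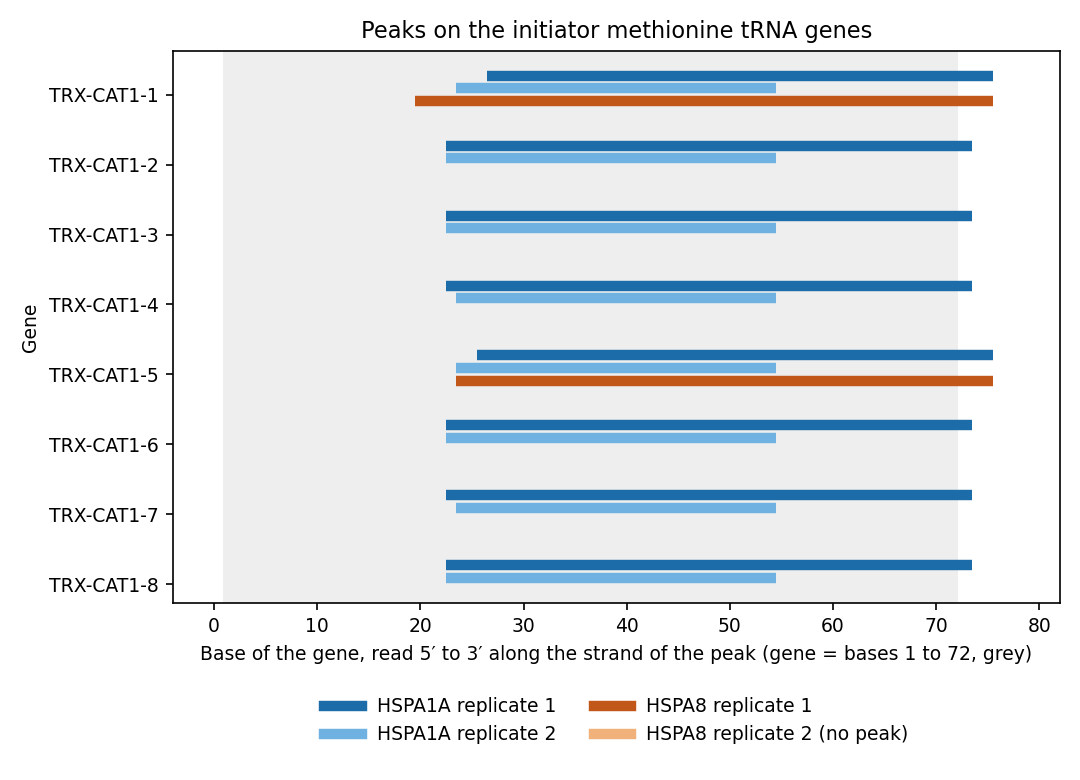
Peaks of the 4 lists on the 8 initiator genes. The horizontal axis is the base of the gene read 5′ to 3′ along the strand of the peak, grey marks the 72 gene bases, and each bar is 1 peak, coloured by list. All 18 peaks cover bases 27 to 54, HSPA1A replicate 2 peaks end at base 54, and HSPA8 replicate 1 has bars on TRX-CAT1-1 and TRX-CAT1-5.

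Each gene had 1 peak per list at most, which gave 18 peaks in all. The gene table has no strand, so positions were counted 5′ to 3′ along the strand of the peak, with base 1 as the first base of the gene. The strand of the peak was the same in every list for each of the 8 genes. It was plus at TRX-CAT1-1 and TRX-CAT1-2, and minus at the other 6 genes. Counted in this way, plus and minus peaks covered the same part of the gene. Their first bases lay between 20 and 27, so the first 19 bases were covered by none of the 18 peaks. Bases 27 to 54, a stretch of 28 bases, were covered by all 18. The copies share a mature sequence, so agreement between copies, or between strands, is not repeated evidence. HSPA8 replicate 2 gave none of these peaks. In the cloverleaf of a tRNA the middle of the sequence holds the anticodon arm, and the T arm and the acceptor end follow towards the 3′ end.

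In HSPA1A replicate 1, the 6 genes TRX-CAT1-2, TRX-CAT1-3, TRX-CAT1-4, TRX-CAT1-6, TRX-CAT1-7 and TRX-CAT1-8 had peaks with identical edges, from base 23 to base 73. The peak of TRX-CAT1-1 ran from base 27 to base 75, and that of TRX-CAT1-5 from base 26 to base 75. These peaks therefore reached 3 bases past the 3′ end of the gene, against 1 base at the other 6. The genes set apart by their edges are those with a peak in HSPA8 replicate 1. There, the peak of TRX-CAT1-1 ran from base 20 to base 75 and that of TRX-CAT1-5 from base 24 to base 75, again 3 bases past the gene. On the plus strand of chromosome 1, the TRX-CAT1-1 peak lay at 153671276 to 153671324 with HSPA1A and at 153671269 to 153671324 with HSPA8, ending at the same base. On the minus strand of chromosome 6, the TRX-CAT1-5 peak lay at 27332982 to 27333031 with HSPA1A and at 27332982 to 27333033 with HSPA8. The RNA that these bases beyond the gene came from was not tested.

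In HSPA1A replicate 2, all 8 peaks ended at base 54, inside the gene, and none reached its 3′ end. They started at base 23 on TRX-CAT1-2, TRX-CAT1-3, TRX-CAT1-6 and TRX-CAT1-8 and at base 24 on TRX-CAT1-1, TRX-CAT1-4, TRX-CAT1-5 and TRX-CAT1-7. Their widths of 31 to 32 bp were smaller than the 49 to 51 bp of HSPA1A replicate 1 and the 52 to 56 bp of HSPA8 replicate 1. Peaks covered 43.1% to 44.4% of the gene in HSPA1A replicate 2, 63.9% to 69.4% in HSPA1A replicate 1 and 68.1% to 73.6% in HSPA8 replicate 1. The replicates of HSPA1A thus shared the 5′ edge of the peaks to within 3 bases and differed at the 3′ edge by 19 to 21 bases. Widths of other tRNA peaks differed in the same order, with medians of 37 bp in HSPA1A replicate 2, 43 bp in HSPA1A replicate 1 and 48 bp in HSPA8 replicate 1.

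The authors' files also give an inner interval within each peak, whose meaning is not stated. In HSPA1A replicate 1 it started between bases 27 and 33 and ended between bases 64 and 73. In HSPA1A replicate 2 it started between bases 29 and 34 and ended at base 54 on every gene, and in HSPA8 replicate 1 it started at bases 24 and 34 and ended at base 75. The inner interval lies within the peak. Its absence from the 5′ part of the gene thus follows from the peak and is no separate result.

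The position of the peaks was compared between baits through the median centre of the peaks of a list. The median centre was base 48 in HSPA1A replicate 1, base 38.8 in HSPA1A replicate 2 and base 48.5 in HSPA8 replicate 1, and HSPA8 replicate 2 has no value. The HSPA1A mean minus the HSPA8 value was -5.12 bases. With 1 list on the HSPA8 side no p could pass a threshold, so none is given. The difference was smaller than the distance between the HSPA1A replicates, and between the lists numbered 1 the medians differed by 0.5 bases. With the inner interval in place of the whole peak, an alternative added after seeing the data, the median centres were base 45.5 and base 42.8 in the HSPA1A lists and base 52.0 in HSPA8 replicate 1. That difference of -7.88 bases exceeded the distance between the HSPA1A replicates. Both differences set different sets of genes against each other, since the HSPA8 medians rest on TRX-CAT1-1 and TRX-CAT1-5 alone. On TRX-CAT1-1 the inner centres were base 53.0 and base 44.0 in HSPA1A replicates 1 and 2 and base 49.5 in HSPA8 replicate 1. On TRX-CAT1-5 they were base 52.0, base 44.0 and base 54.5. On these genes the HSPA8 values thus lay nearer to HSPA1A replicate 1 than the HSPA1A replicates lay to each other.

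Scores of the initiator genes were low to middling within their lists. The score is a whole number given by the authors, of unstated meaning, and is used here within a list. TRX-CAT1-1 had scores of 14 and 7 in HSPA1A replicates 1 and 2, a score of 16 in HSPA8 replicate 1 and no peak in HSPA8 replicate 2. TRX-CAT1-5 had scores of 12 and 7 in the HSPA1A lists, 12 in HSPA8 replicate 1 and no peak in HSPA8 replicate 2. These 2 genes had the highest scores of the 8 in HSPA1A replicate 1. TRX-CAT1-2, TRX-CAT1-3, TRX-CAT1-4, TRX-CAT1-6, TRX-CAT1-7 and TRX-CAT1-8 each had a score of 9 in HSPA1A replicate 1 and of 7 in HSPA1A replicate 2.

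The median score of a list was 10 and 13 for HSPA1A replicates 1 and 2 and 10 and 22 for HSPA8 replicates 1 and 2. In HSPA1A replicate 1 the score of 9 stood at percentile 46.5 of all peaks, that of TRX-CAT1-5 at 55.7 and that of TRX-CAT1-1 at 59.0. The score of 7 stood at percentile 26.5 in HSPA1A replicate 2. In HSPA8 replicate 1 TRX-CAT1-5 stood at 54.1 and TRX-CAT1-1 at 58.8, so these copies had like percentiles in both lists numbered 1. Among tRNA genes with a peak, 43 of 174 scored higher than TRX-CAT1-1 in HSPA1A replicate 1 and 41 of 175 in HSPA8 replicate 1. In HSPA1A replicate 2, 101 of 152 scored higher than the initiator genes.

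The difference in counts rested on peaks that scored under the median of their list. When peaks under the median score of their list were left out, TRX-CAT1-1 and TRX-CAT1-5 kept a peak in HSPA1A replicate 1 and in HSPA8 replicate 1, and no initiator gene had one in either list numbered 2. The mean was then 1 gene for each bait and the difference 0.

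**Figure D2:**
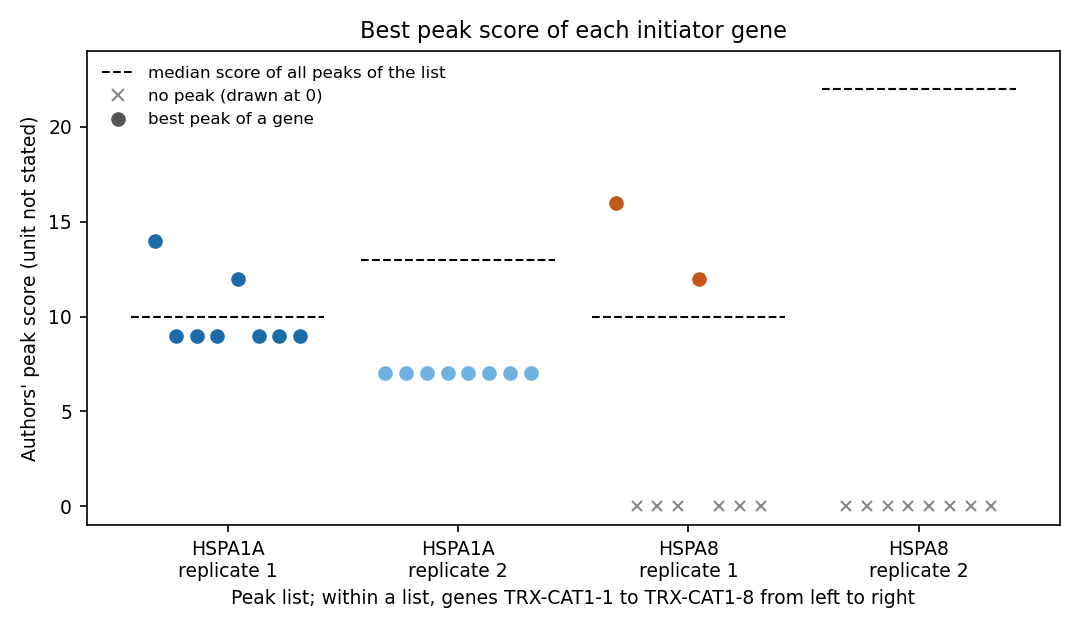
Best peak score of each initiator gene in the 4 lists. The vertical axis is the authors' score, whose unit is not stated, points run from TRX-CAT1-1 to TRX-CAT1-8 within a list, crosses at 0 mark genes without a peak, and dashed lines are the median score of all peaks of the list. TRX-CAT1-1 and TRX-CAT1-5 lie above the median of 10 in HSPA1A replicate 1 and HSPA8 replicate 1, and all 8 genes lie below the median of 13 in HSPA1A replicate 2.

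Genes without a peak were not missed by a small distance. Over the 14 pairs of gene and HSPA8 list without a peak, the nearest peak on the chromosome lay between 479 and 5332418 bp away. Several of the nearest peaks were on other tRNA genes of the chromosome 6 clusters. TRK-TTT6-1, a lysine tRNA gene 1934 bp from TRX-CAT1-5, scored 37 in HSPA1A replicate 1 and 17 in replicate 2, and 22 and 9 with HSPA8, and so had a peak in HSPA8 replicate 2, where TRX-CAT1-5 had none. TRK-TTT4-1, 935 bp from TRX-CAT1-6, had scores of 12 and 13 in the HSPA1A lists, 7 in HSPA8 replicate 1 and no peak in HSPA8 replicate 2. TRG-GCC2-3, a glycine gene 344 bp from TRX-CAT1-7, had scores of 6 and 7 with HSPA1A and no peak with HSPA8, the pattern of TRX-CAT1-7 itself. TRW-CCA3-2, a tryptophan gene 1072 bp from TRX-CAT1-4, had a peak in 0 of the 4 lists. TRX-CAT1-3 has 3 tRNA genes within 2000 bp. TRS-TGA3-1, a serine gene 447 bp away, had a peak in HSPA8 replicate 1 alone, with a score of 7, where TRX-CAT1-3 had none. The glutamine genes TRQ-TTG3-1 and TRQ-TTG3-2 had a peak in both HSPA1A lists, with scores of 7 to 10, and in HSPA8 replicate 1, with scores of 9 and 10. The neighbours thus showed patterns that differed from gene to gene.

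The elongator methionine genes, whose symbols start with TRM-CAT, share the CAT anticodon and were set beside the initiator genes. Of 11 such genes, a peak lay on 8 in the first list of each bait and on 0 in the second. The same 8 genes had a peak in both lists numbered 1 and in neither list numbered 2, a pattern seen at 31 of the 443 tRNA genes (7.0%) and at 0 of the 8 initiator genes. The methionine families therefore did not share a pattern across lists. The initiator counts were higher in each HSPA1A list than in each HSPA8 list, and the elongator counts differed by replicate number. These initiator counts are of copies that share a mature sequence. Taken as 1 sequence, the initiator had a peak in both HSPA1A lists and in HSPA8 replicate 1, and none in HSPA8 replicate 2. The contrast in counts held for whole lists. Among peaks at or above the median score of their list, the initiator counts were 2 and 0 with each bait. The elongator count was then 6 in HSPA8 replicate 1 and 0 in the other lists. Elongator scores were 6 to 7 in HSPA1A replicate 1 and 5 to 11 in HSPA8 replicate 1. Their peaks in HSPA1A replicate 1 ran from base 25 to base 55 or 56, close to the extent of the initiator peaks in HSPA1A replicate 2 and short of the 3′ end. In HSPA8 replicate 1, 7 of the 8 elongator peaks reached past the 3′ end of the gene, as both initiator peaks did.

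**Figure D3:**
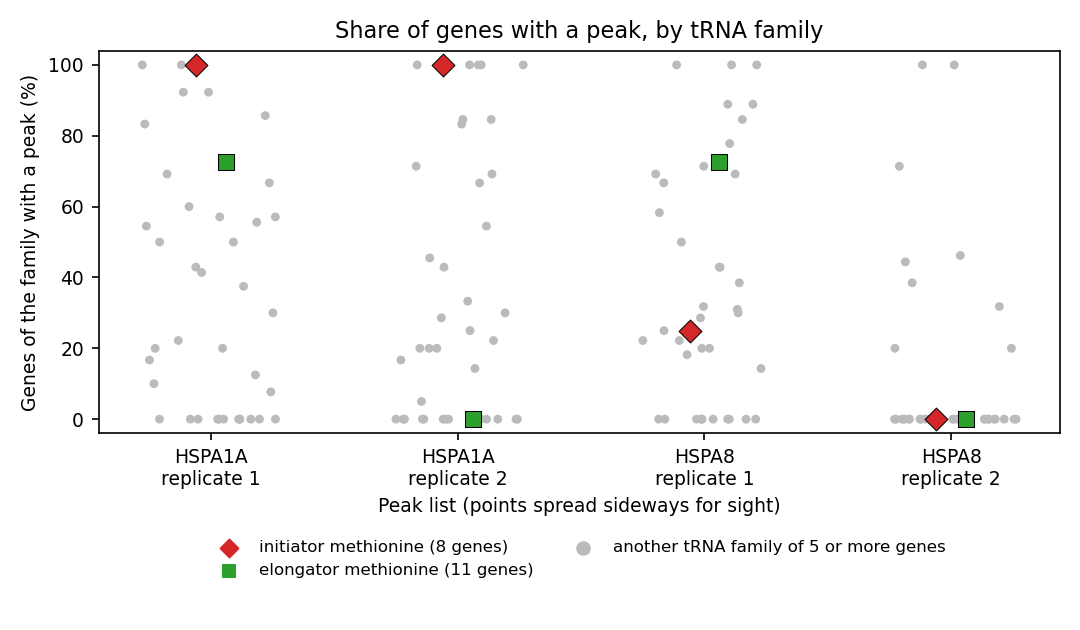
Percentage of the genes of a tRNA family with a peak, in the 4 lists, for the 41 families of 5 or more genes. The initiator family (red diamonds) lies at 100%, 100%, 25.0% and 0% and the elongator methionine family (green squares) at 72.7%, 0%, 72.7% and 0%.

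Across the 41 tRNA families of 5 or more genes, 3 had a peak on every gene in both HSPA1A lists: the aspartate GTC, glutamate CTC and initiator families. Of these, the glutamate CTC and initiator families had a peak on 0 genes in HSPA8 replicate 2. An empty family was common in that list, with 32 of the 41 families. Families were taken by symbol, so TRNAE-UUC and TRNAA-AGC, of 5 genes each and without a peak in any list, count among the 32. In HSPA8 replicate 1 all 8 glutamate CTC genes carried a peak, against 2 of the 8 initiator genes. The glutamate TTC family (symbols starting with TRE-TTC, without the 5 TRNAE-UUC genes) missed the every-gene limit in HSPA1A replicate 1. Its shares were close to those of the initiator family. It had a peak on 6 and 7 of its 7 genes in HSPA1A replicates 1 and 2. In HSPA8 replicates 1 and 2 its counts were 2 and 0. A list with peaks on some copies of a sequence and not on others was also seen elsewhere. There were 57 groups of 2 or more genes that share the number before the last hyphen, with the initiator group counted among them. In HSPA8 replicate 1, 25 groups had a peak on every copy, 11 on some copies and 21 on none. The initiator group is 1 of these 11. The groups with peaks on some copies were 11 of the 36 with any peak in that list, against 7 of 35 in HSPA1A replicate 1, 6 of 28 in HSPA1A replicate 2 and 2 of 9 in HSPA8 replicate 2. In HSPA1A replicate 2, 10 of the 22 groups with a peak on every copy had equal scores throughout. The initiator group, whose copies had 1 score, is among these 10.

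The position of initiator peaks was then set against that of all other tRNA peaks in the same list. The median centre of the others was base 48 in HSPA1A replicate 1, base 42.5 in HSPA1A replicate 2 and base 51.5 in HSPA8 replicate 1. The initiator median minus that of the others was 0, -3.75 and -3 bases in the same order. The mean difference was -2.25 bases. A sign-flip test over these lists says nothing here, since 1 of the 3 differences is 0 and no p under 0.5 was possible. A start at base 20 or later, a limit chosen after the values were seen, held for all initiator peaks by that choice. It held for 70.9%, 58.3% and 59.8% of other tRNA peaks in the same lists. Reaching past the 3′ end was seen for 43.0%, 24.5% and 66.7% of other tRNA peaks, and for 8 of 8, 0 of 8 and 2 of 2 initiator peaks. A peak that leaves out the 5′ part of the tRNA was therefore common in each list, and whether the initiator genes differ from the rest in this was not tested.

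**Figure D4:**
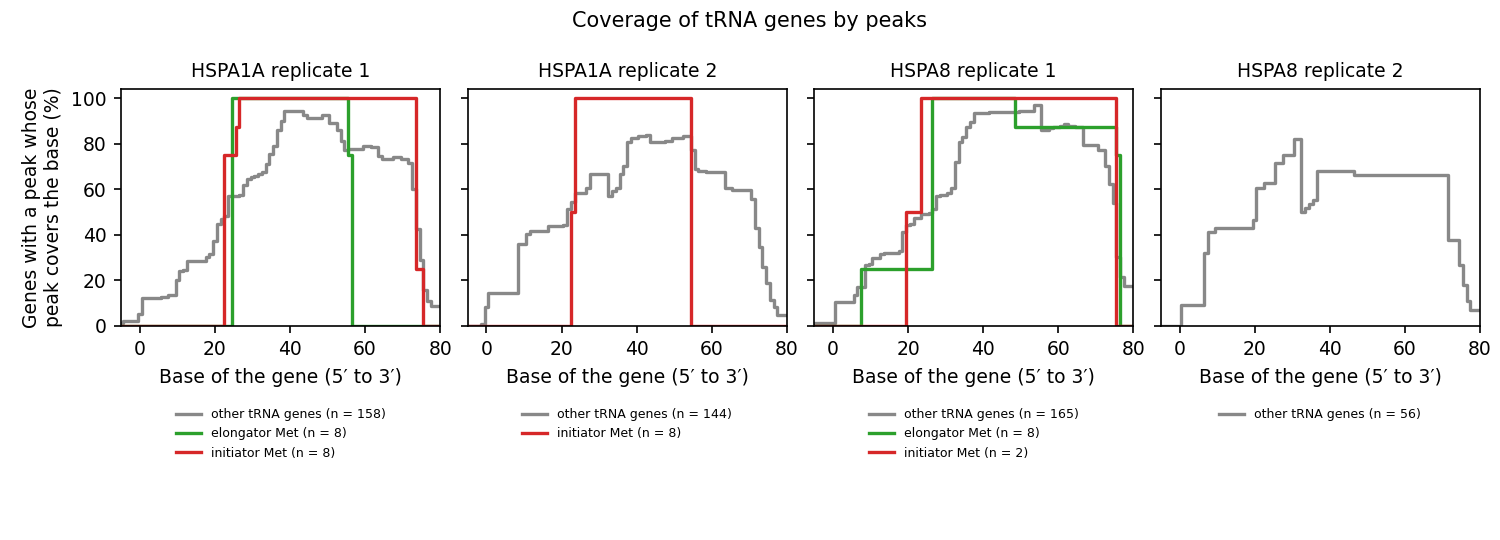
Percentage of tRNA genes with a peak whose peak covers each base, in the 4 lists, for initiator methionine (red), elongator methionine (green) and other tRNA genes (grey). The horizontal axis is the base of the gene read 5′ to 3′ along the strand of the peak. Base 65 is covered on 8 of 8 initiator genes in HSPA1A replicate 1, on 0 of 8 in HSPA1A replicate 2 and on 2 of 2 in HSPA8 replicate 1, and on 73.4%, 60.4% and 87.3% of the other tRNA genes with a peak in those lists.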

How the data were processed

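FLASH-seq RNA was crosslinked to tagged baits, and PCR duplicates were merged by random tags, per the labels' protocols. The submitters' processing notes name GRCh38, Trim Galore 0.4.4, STAR 2.6.0b, FastQC and deepTools. The peak caller and the handling of reads that match several places are not given in the sources used here. The authors deposited 1 peak list per replicate, with positions in base pairs, an inner interval and a score per peak. Peaks were set against 443 nuclear tRNA genes (RefSeq, GRCh38.p14), on either strand, with at least 1 bp shared. Scaffold peaks stayed in the lists. All 8 members are named, and the elongator methionine genes are given as counts and ranges. The members and lists were chosen with earlier results of these data known. The planned exact permutation and sign-flip tests over lists could not give a p under 0.25, so their p-values are not used. Alternatives were a median score minimum, equal list lengths (ties kept), 50% overlap, peak midpoints, each replicate left out and, added after seeing the data, percent of gene length, the inner interval and differences within replicate numbers. The same-strand alternative was not run, because no gene strand was used here. Positions and tests were tested on simulated peaks. The tools were Python 3.11.15 with pandas 2.3.3, numpy 2.4.6 and matplotlib 3.10.9.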

Additional observations from a re-analysis of the deposited data

How the results depend on the processing

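The difference of 7 initiator genes between the bait means stayed at 7 with equal numbers of top-scoring peaks, with 50% overlap and with peak midpoints, and leaving out 1 replicate at a time gave 6 to 8. It was 0 with peaks at or above the median score of their list, where fewer peaks remain by construction. The equal numbers of top-scoring peaks counted peaks on scaffolds, where none of the tRNA genes used here lie. HSPA8 replicate 2, the shortest list, kept all of its 2040 peaks, of which 617 lay on scaffolds, against 0 in the HSPA1A lists. The numbers were thus not equal on the chromosomes. All 18 scores were unchanged with 50% overlap. The replicate numbers name no shared day or batch, and with the replicate block (differences within replicate numbers, a description with no test) the count difference was 7. No paired analysis was possible for peak position because HSPA8 replicate 2 had no initiator peak. The bait difference in median centre, -5.12 bases, turned to 2.25 with the higher-scoring peaks, where 1 list per bait gave a value and no test was possible. Leaving out 1 replicate at a time gave -9.75 to -0.5. Without HSPA8 replicate 1 it had no value. With the inner interval it was -7.88. The differences of -5.12 and -7.88 are not on the same genes, because the HSPA8 value rests on TRX-CAT1-1 and TRX-CAT1-5 alone. The mean difference between initiator and other tRNA peaks kept its sign under the 10 alternatives run, from -3.38 to -0.125 bases (-1.71 as a percent of gene length), and lay between -3.38 and -1.5 with 1 replicate left out at a time. Single lists did not: HSPA1A replicate 1, at 0, was 3.25 with the higher-scoring peaks, 1.0 with equal numbers, 0.913 as a percent of gene length and -6.5 with the inner interval, and HSPA8 replicate 1 turned from -3 to 2.0 with the inner interval. No test here could give a p under 0.25, so an unchanged call says nothing about stability. Unknown read depth limits every absence of a peak.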
